A study of Homo sapiens with 18 samples.

Results

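The response of NCI-H1299 cells to an empty plasmid was read from 3 libraries labelled EV and 3 labelled Ctl, which are 6 of the 18 RNA-seq libraries of a study on the T-box factors TBX2, TBX3, TBX4 and TBX5. NCI-H1299 is an established human lung cancer line, labelled here as lung adenocarcinoma, of passage 12 to 14, grown in low-glucose DMEM with 10% serum. All 6 libraries came from total RNA of this line, and they differ by label only in EV or Ctl. The study transfected its plasmids transiently with Lipofectamine 2000, so that a culture holds transfected and untransfected cells together and the values are averages over both. The sources used here do not say which backbone the empty vector was or what the Ctl cells received, so the effects of the lipid reagent, of the DNA and of handling cannot be told apart. Nothing says whether the 3 libraries of a group came from separate cultures, and p-values measure the spread between these libraries only. Of 63677 genes in the table, 15576 passed the filter of more than 5 counts in 10 or more libraries of the series and were tested.

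Plasmid DNA carried into a cell by a cationic lipid can reach the cytosol, where sensors of foreign nucleic acid such as cGAS, and RIG-I for RNA copied from it, signal through TBK1 and the IRF factors. The IRF factors switch on interferon genes and, directly, some of the interferon-stimulated genes, whose products block viral RNA and protein synthesis, while secreted interferon acts through STAT factors and IRF9. Lipid supply is sensed separately: the SREBP factors, encoded by SREBF1 and SREBF2, drive genes of fatty acid and sterol synthesis. A further arm, the integrated stress response, slows translation and raises ATF4 and its targets when proteins misfold, amino acids run short or double-stranded RNA is sensed.

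Total counts ran from 8853984 to 11743179 per library (median 10775834). One gene without a symbol, ENSG00000266658, took 30.3% to 40.2% of the counts in the Ctl libraries, 32.7% and 34.7% in EV replicates 1 and 2, and 12.4% in EV replicate 3. EV replicate 3 therefore stands apart, with more counts left for all other genes, and levels are given as CPM, the counts scaled to a common library size by TMM, which allows for this. Mitochondrial ribosomal RNA took a further 13.5% to 16.9% of the counts in Ctl. In EV replicates 1, 2 and 3 it took 15.6%, 14.7% and 18.7%. The lung adenocarcinoma marker list summed to 992 to 1069 CPM in Ctl and 973 to 988 CPM in EV. It holds VIM, which is not an epithelial marker, beside epithelial and lung genes. Of its 11 genes only KRT7, KRT8, KRT18 and VIM passed the filter. The 5 genes KRT19, EPCAM, CDH1, NKX2-1 and SFTPC had at most 3 counts in every library. The fibroblast, leukocyte, endothelial and erythroid lists summed to at most 2.15 CPM in any of the 6. TBX2 had 31 to 56 counts per library, TBX3 12 to 34, TBX4 0 or 1, and TBX5 was at 0 in all 6.

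EV and Ctl cells differed in few genes, and mostly by little. Values in brackets with an adjusted p are log2 fold changes of EV over Ctl unless another group is named. At an adjusted p under 0.1 (edgeR quasi-likelihood test, Benjamini-Hochberg adjustment over all tested genes) 60 genes passed, 0.385% of those tested: 44 were higher in EV, 0.282%, and 16 were lower, 0.103%. Among these 60 the absolute log2 fold change had a median of 0.47, and 7 genes rose and 1 fell by a log2 fold change of 1 or more. At an unadjusted p under 0.05 there were 9.19% of the tested genes, 4.93% higher and 4.26% lower, and 50.4% of all tested genes had a log2 fold change above 0. With library totals in place of TMM scaling the split was 16 higher and 1 lower, and the median log2 fold change of all tested genes moved from 0.00 to 0.20. With totals that left out ENSG00000266658 this median was 0.02. Leaving out Ctl replicate 1, 2 or 3 gave 29, 15 and 131 higher and 20, 7 and 99 lower genes. Leaving out EV replicate 1, 2 or 3 gave 19, 28 and 19 higher and 10, 10 and 11 lower genes, the last of these without the library that stands apart.

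A core of 19 genes passed in every one of the 6 fits that left out 1 library. The 12 that were higher in EV included IFIT2, ISG15, IFI44, IFIT3, IFIT1, TFRC, DDIT3, NAV3, PMAIP1, TRIB3 and OASL. The 7 that were lower were SREBF1, INSIG1, SCD, JADE2, ACSL3, APEX1 and CDKN2C. The other 41 lost the call in at least 1 of these fits. Of those named below, RIGI, ASNS and CDKN1A passed in 5 of the 6 fits, DDX60 and SAT1 in 4, and SESN2, HSP90B1, RNU4-2 and RN7SL2 in 3. HLA-E, BIRC3, MMP1, CAV1, CAV2, PLTP, MIR3648 and ZNF283 passed in 2. SAMD9, FASN, LPIN1, ELOVL1, ATF3, TXNRD1, ID2, ERG, PLAUR, RN7SL3 and SCARNA13 passed in 1. In 59 of the 60 genes that passed, every EV library lay beyond every Ctl library. These genes were chosen by a test on the same libraries, so this separation is no further support. Of all tested genes, 7.68% had all EV above all Ctl and 6.84% all below.

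**Figure D1:**
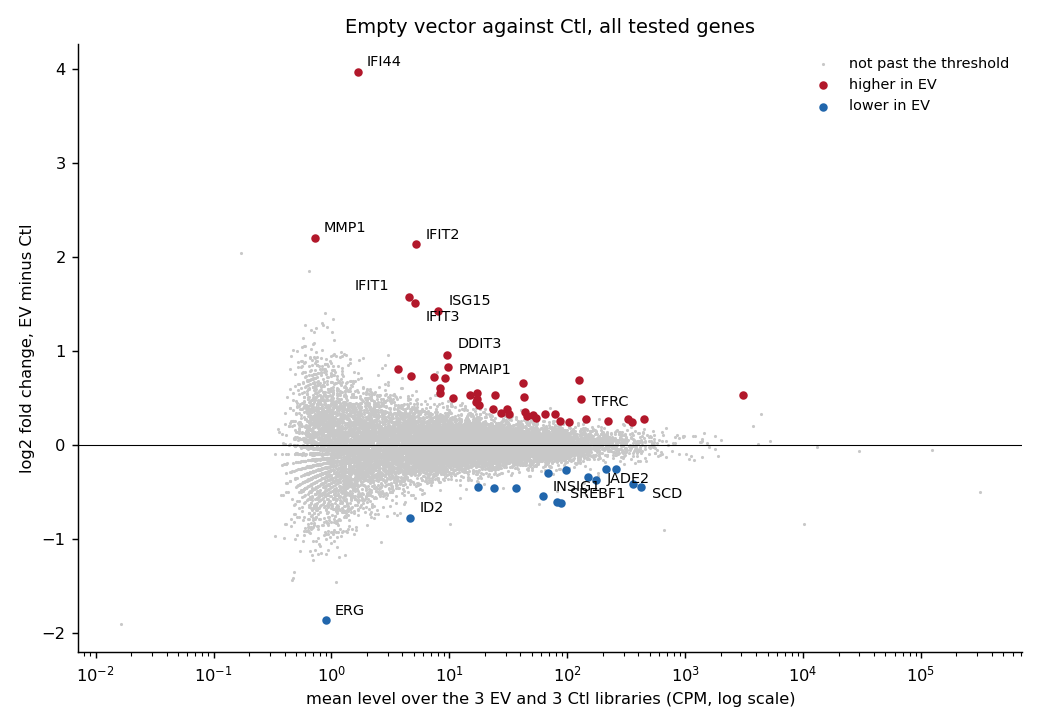
Each point is a tested gene, with its mean level over the 6 libraries in CPM on a log axis and its log2 fold change of EV over Ctl. Red points passed the test and were higher in EV, blue points passed and were lower, and grey points did not pass; OASL, at 0 counts in every Ctl library, passed and is not drawn. IFI44 at 3.97, MMP1 at 2.21 and IFIT2 at 2.14 stand above the rest, and SREBF1 at -0.62, INSIG1 at -0.55 and SCD at -0.45 lie among the higher expressed genes that fell.

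Interferon-stimulated genes made up 6 of the 7 rises of 1 or more on the log2 scale, the other being MMP1. Of the 59 genes of that list, 39 were tested, 8 rose and none fell, against the background of 0.282% that were higher in EV among all tested genes. The 8 were IFIT1, IFIT2 and IFIT3, which bind viral RNA or its translation machinery, ISG15, a ubiquitin-like modifier, IFI44, OASL, a relative of the 2'-5' oligoadenylate synthetases, DDX60, a helicase that aids RNA sensing, and SAMD9, an antiviral restriction factor. The rise did not extend over the list: 24 of the 39 lay above 0 and 15 below, and their median log2 fold change was 0.06 beside 0.00 for all tested genes, with OASL above the median wherever it is placed.

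Interferon-stimulated genes are commonly bound by IRF and STAT factors at the interferon-stimulated response element. Windows of 4 of the genes that rose are shown for this element, which was searched on both strands as GAAA, any 2 bases and GAAA, in RefSeq promoter windows of GRCh38.p14 reaching from 250 bases before to 50 after each gene's start. Capitals mark the element or its reverse complement, and each sequence runs 5′ to 3′ in the direction of the gene.
ISG15 (chr1:1013344-1013439, plus strand): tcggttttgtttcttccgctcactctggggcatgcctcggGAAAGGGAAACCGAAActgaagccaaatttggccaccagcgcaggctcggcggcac
IFI44 (chr1:78649731-78649788, plus strand): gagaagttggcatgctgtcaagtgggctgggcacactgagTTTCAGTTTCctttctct
IFIT1 (chr10:89392467-89392569, plus strand): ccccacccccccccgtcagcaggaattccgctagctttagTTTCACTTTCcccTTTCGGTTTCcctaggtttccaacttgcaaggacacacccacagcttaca
DDX60 (chr4:168318756-168318880, minus strand): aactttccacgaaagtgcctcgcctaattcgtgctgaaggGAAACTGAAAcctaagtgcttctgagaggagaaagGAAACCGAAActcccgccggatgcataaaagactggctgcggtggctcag
The element was present in 6 of the 6 genes that rose and have a window in the table (IFIT2 and OASL have none), in 18 of 27 tested list members that did not pass, and in 3.57% of 35116 promoters. The STAT site TTCNNNGAA occurred in 1 of the 6, DDX60, and in 7.66% of all promoters. These matches describe letters in the windows only.

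IFIT2 (chr10:91043451-91069028 in GRCh37) stood at 1.95, 1.95 and 1.78 CPM in the Ctl libraries and at 9.68, 8.88 and 7.19 CPM in the EV libraries. The groups were far apart, with the lowest EV library well above the highest Ctl library (log2 fold change 2.14 ± 0.19 SE, adjusted p = 9.0e-07). ISG15 (chr1:936518-949920) was at 4.98, 4.51 and 3.66 CPM in Ctl and 12.1, 10.3 and 12.8 CPM in EV, again without overlap (log2 fold change 1.43 ± 0.15 SE, adjusted p = 4.6e-06).

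IFI44 was close to absent in Ctl cells and clearly present in EV cells. It had 0, 4 and 2 counts in the Ctl libraries and 28, 31 and 47 in the EV libraries (log2 fold change 3.97, 95% interval 3.10 to 4.85). OASL had 0 counts in all 3 Ctl libraries and 10, 4 and 13 in EV, so that it was at least 2.80-fold higher in EV when each Ctl library is set to a floor of 3 counts (adjusted p = 0.0061). Both were at or near the detection limit in Ctl and at a low level in EV.

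The neighbouring IFIT1 and IFIT3 rose by similar amounts. IFIT1 was at 1.86, 2.83 and 2.08 CPM in Ctl and 6.83, 6.85 and 6.68 CPM in EV (log2 fold change 1.57 ± 0.19 SE, adjusted p = 3.7e-05). IFIT3 was at 2.74, 2.74 and 2.37 CPM and 8.77, 6.42 and 7.44 CPM (log2 fold change 1.51 ± 0.18 SE, adjusted p = 3.7e-05). DDX60 and SAMD9 changed less, with log2 fold changes of 0.72, adjusted p = 0.015, and 0.49, adjusted p = 0.088.

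Of the 20 members of the list that were not tested, 14 had at most 3 counts in every library. MX1, a dynamin-like antiviral GTPase, had 3, 0 and 2 counts in Ctl and 6, 3 and 9 in EV, below the filter. RSAD2 and CMPK2 were at 0 in all 6 libraries, and OAS1, OAS2, IFI44L, XAF1 and CXCL10 had at most 1 count in any. OAS3, an oligoadenylate synthetase expressed in these cells, was at 27.5, 28.8 and 28.5 CPM in Ctl and 27.2, 25.04 and 23.6 CPM in EV (-0.17, 95% interval -0.34 to -0.01, adjusted p = 0.52).

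The genes that make and carry the interferon signal did not pass. IFNB1 and IFNL1, IFNL2 and IFNL3, encoding type I and type III interferons, were at 0 counts in all 6 libraries, where a count of 0 allows up to 3 counts per library. None of the 20 tested interferon receptor, STAT and IRF genes passed in edgeR or DESeq2 or had an unadjusted p under 0.05, and 8 lay above 0 and 12 below, with a median of -0.04, or 0.15 with library totals beside 0.20 for all tested genes. STAT2 (-0.04, adjusted p = 0.93) and IRF7 (0.01, adjusted p = 1) were among them. IRF9, at 3 to 8 counts per library, had a wide interval (-0.43, 95% interval -1.42 to 0.56, adjusted p = 0.84).

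The list of cytosolic nucleic acid sensing holds adaptors such as STING1 and other genes beside the sensors. Of its 19 tested genes, 2 were higher and 1 lower at an unadjusted p under 0.05, beside 4.93% and 4.26% of all tested genes. Only 1 passed, as higher, beside 0.282%. This was RIGI, the RIG-I receptor for RNA with 5′ triphosphate ends, at 13.3, 15.2 and 13.3 CPM in Ctl and 21.6, 18.2 and 21.4 CPM in EV (log2 fold change 0.55 ± 0.10 SE, adjusted p = 0.01), without overlap of the groups. The related sensor IFIH1 (MDA5) was at 13.5, 12.6 and 11.9 CPM and 17.1, 14.6 and 15.1 CPM, and did not pass (0.30, adjusted p = 0.37). CGAS, the sensor of cytosolic DNA, and STING1, its adaptor, had log2 fold changes of 0.13, adjusted p = 0.69, and -0.04, adjusted p = 0.98, with STING1 at only 21 to 48 counts per library.

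In antigen presentation by MHC class I, 1 of 18 genes rose, HLA-E, a ligand of inhibitory receptors on natural killer cells (0.35, adjusted p = 0.051). Among all tested genes 0.282% rose, and DESeq2 gave no call in the MHC list. At an unadjusted p under 0.05, 3 of its genes were higher and 1 lower, beside 4.93% and 4.26%. HLA-B was at 58.2, 57.8 and 57.6 CPM in Ctl and 65.9, 67.5 and 67.6 CPM in EV, and B2M at 98.5, 102 and 98.8 CPM and 116, 115 and 108 CPM. In both genes every EV library lay above every Ctl library, and neither passed (0.21, adjusted p = 0.21, and 0.18, adjusted p = 0.31), and HLA-B shares 45.3% of its exon bases with other annotated genes. Of 22 tested NF-kappaB targets and cytokines 1 rose, BIRC3, an inhibitor of apoptosis (0.28, adjusted p = 0.082). In this list 17 lay above 0 and 5 below, beside 50.4% above 0 among all tested genes. At an unadjusted p under 0.05, 7 were higher and 1 lower, beside 4.93% and 4.26%. NFKBIA (0.02, adjusted p = 0.97) and TNFAIP3 (0.13, adjusted p = 0.79), inhibitors of NF-kappaB that are among its prompt targets, did not pass, and CXCL8 had at most 1 count per library.

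Some genes of lipid synthesis were lower in EV. Of 18 tested fatty acid genes 4 fell and 1 rose, and of 32 tested genes of sterol synthesis and uptake 2 fell and none rose, against 0.103% lower in EV among all tested genes. The 6 that fell were SREBF1, encoding SREBP-1, INSIG1, which holds the SREBP complex in the endoplasmic reticulum, SCD, which desaturates fatty acids, FASN, the fatty acid synthase, ACSL3, which activates fatty acids, and LPIN1, a phosphatidate phosphatase. ELOVL1, which extends very long chains, rose (0.32, adjusted p = 0.087). With library totals none of the 6 passed, and the medians of both lists, -0.07 for sterol and -0.08 for fatty acid genes, became 0.13 and 0.12 beside 0.20 for all tested genes. With totals that left out ENSG00000266658 they were -0.05 and -0.06 beside 0.02. DESeq2 called 1 sterol gene and 3 fatty acid genes, all lower in EV.

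SREBF1 (chr17:17713713-17740316) was at 104, 112 and 103 CPM in Ctl and 65.6, 68.2 and 73.1 CPM in EV (log2 fold change -0.62 ± 0.06 SE, adjusted p = 4.6e-06). INSIG1 (chr7:155089486-155101945) was at 75.7, 74.8 and 73.5 CPM and 47.3, 50.9 and 54.4 CPM (log2 fold change -0.55 ± 0.07 SE, adjusted p = 4.7e-05). SCD (chr10:102106990-102124583) was at 492, 511 and 458 CPM and 352, 361 and 359 CPM (log2 fold change -0.45 ± 0.06 SE, adjusted p = 2.4e-04). In all of these genes the EV libraries lay together below the Ctl libraries, and the tightest was SCD, whose EV libraries spanned 352 to 361 CPM.

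ACSL3 fell by 0.34 on the log2 scale (adjusted p = 0.0041). FASN was at 460.4, 447 and 324 CPM in Ctl and 304, 316 and 303 CPM in EV (log2 fold change -0.42 ± 0.09 SE, adjusted p = 0.049). Ctl replicate 3 lay close to the EV libraries, although the groups did not overlap. LPIN1 fell as well (-0.30, adjusted p = 0.075).

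The rest of the sterol pathway gave smaller values. Of the 32 tested genes 24 lay below 0, and 10 had all EV libraries below all Ctl libraries, beside 6.84% of all tested genes. At an unadjusted p under 0.05, 11 were lower and 1 higher, beside 4.26% and 4.93% of all tested genes. FDPS (-0.27, adjusted p = 0.14) and IDI1 (-0.29, adjusted p = 0.14), which make isoprenoid units, did not pass, nor did SREBF2, encoding SREBP-2 (-0.15, adjusted p = 0.54). HMGCS1, an enzyme of early sterol synthesis, was also without a call (-0.06, adjusted p = 0.84). None of the 8 tested sterol efflux genes passed in edgeR or DESeq2, with 1 higher and 2 lower at an unadjusted p under 0.05, ABCA1, the cholesterol exporter, having -0.33, adjusted p = 0.19.

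**Figure D2:**
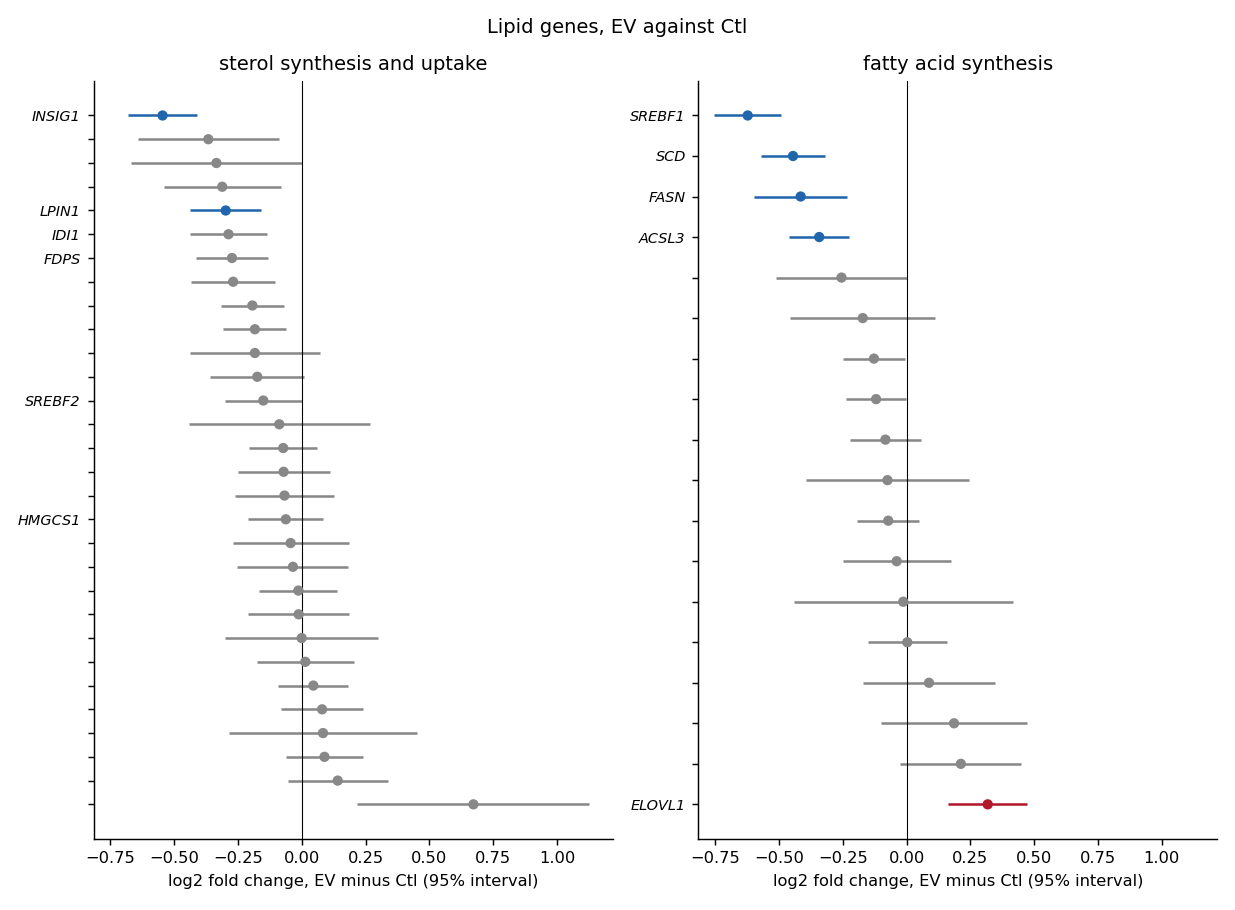
Points are log2 fold changes of EV over Ctl with 95% intervals for the tested genes of sterol synthesis and uptake (left) and fatty acid synthesis (right) that are reported here, with those named in the text labelled. Blue genes passed the test and were lower in EV, the red gene passed and was higher, and grey genes did not pass. SREBF1 at -0.62 and INSIG1 at -0.55 lie farthest to the left, while HMGCS1 at -0.06 lies near 0.

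No promoter window of the lipid genes that passed held the sterol regulatory element searched as TCACNCCAC, which 1.13% of all promoters hold. The windows were available for 2 of 2 sterol genes and 4 of 5 fatty acid genes. Among tested members that did not pass, 1 of 24 sterol windows and 1 of 12 fatty acid windows held it.

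The integrated stress response rose in part. Of 34 tested genes 5 passed, all higher in EV, beside 0.282% of all tested genes, and 28 lay above 0 and 6 below, beside 50.4% above 0 among all tested genes. The median log2 fold change was 0.15, and 15 were higher and 0 lower at an unadjusted p under 0.05, beside 4.93% and 4.26%. The count was 3 without Ctl replicate 1, Ctl replicate 2, EV replicate 1 or EV replicate 3, 4 without EV replicate 2 and 9 without Ctl replicate 3. The 5 were DDIT3, encoding the stress transcription factor CHOP, TRIB3, a pseudokinase induced by CHOP, ASNS, the asparagine synthetase, SESN2, which restrains mTORC1, and ATF3, a stress-induced transcription factor.

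DDIT3 (chr12:57910371-57915520) was at 6.25, 6.28 and 6.72 CPM in Ctl and 12.8, 13.3 and 11.7 CPM in EV (log2 fold change 0.96 ± 0.12 SE, adjusted p = 9.7e-05), and 31.6% of its exon bases are shared with other annotated genes. TRIB3 was at 6.74, 7.34 and 6.72 CPM in Ctl and 11.5, 11.2 and 11.3 CPM in EV (log2 fold change 0.71 ± 0.12 SE, adjusted p = 0.0049). ASNS was at 71.5, 68.8 and 66.9 CPM and 84.5, 86.7 and 88.9 CPM (log2 fold change 0.33 ± 0.06 SE, adjusted p = 0.013). In each the groups did not overlap.

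SESN2 (0.61, adjusted p = 0.065) and ATF3 (0.81, adjusted p = 0.091) also passed. ATF4, the factor that drives this group and is regulated mainly by translation, was at 117, 119 and 149 CPM in Ctl and 141, 143 and 137 CPM in EV and did not pass (0.13, adjusted p = 0.62). The ATF4 composite element TTGCATCA was in none of the 5 windows of the genes that rose. It was in 4 of 24 windows of tested list members that did not pass, and in 0.866% of all promoters. These matches describe letters in the windows only.

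The unfolded protein response answers misfolding in the endoplasmic reticulum. Of its 26 tested genes 24 lay above 0, beside 50.4% of all tested genes, with a median of 0.17. At an unadjusted p under 0.05, 12 were higher and 0 lower, beside 4.93% and 4.26%. In 11 every EV library lay above every Ctl library, beside 7.68%, and in 1 below, beside 6.84%. Only 1 passed, as higher, beside 0.282%. That gene was HSP90B1, the chaperone GRP94 (0.27, adjusted p = 0.073). HSPA5, the chaperone BiP, ranged from 103 to 141 CPM in Ctl and from 126 to 168 CPM in EV, so that the groups overlapped (0.27, adjusted p = 0.36). HERPUD1, a component of the degradation machinery, was at 10.5, 12.1 and 9.39 CPM and 14.1, 14.4 and 14.4 CPM (0.42, adjusted p = 0.17).

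Other stress programmes gave few calls. None of 25 tested heat shock genes passed in edgeR or DESeq2, with 1 higher and 1 lower at an unadjusted p under 0.05. HSPA1A, whose reads can be hard to tell from those of the near-identical HSPA1B, had -0.23, adjusted p = 0.43. Of 25 tested NRF2 genes 1 rose, beside 0.282% of all tested genes. At an unadjusted p under 0.05, 5 were higher and 0 lower, beside 4.93% and 4.26%. The gene that rose was TXNRD1, a thioredoxin reductase (0.24, adjusted p = 0.095), while HMOX1, the heme oxygenase, did not pass (0.18, adjusted p = 0.7). None of 5 tested metallothionein and zinc genes passed in edgeR or DESeq2 or had an unadjusted p under 0.05, with MT2A at -0.01, adjusted p = 0.99.

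Immediate-early genes had the highest median of the lists, 0.26, with 23 of 29 tested genes above 0, beside 50.4% of all tested genes. At an unadjusted p under 0.05, 12 were higher and 1 lower, beside 4.93% and 4.26%. The 1 call was ATF3, as higher, beside 0.282% of all tested genes, and DESeq2 gave none in this list. EGR1, a growth-factor response factor, was at 5.38, 5.13 and 6.33 CPM in Ctl and 12.6, 11.2 and 6.49 CPM in EV (0.78, adjusted p = 0.14). EV replicate 3 was close to the Ctl libraries in this gene, and the other EV libraries were well above them. FOS, at 13 to 44 counts per library, had 0.81, adjusted p = 0.28.

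**Figure D3:**
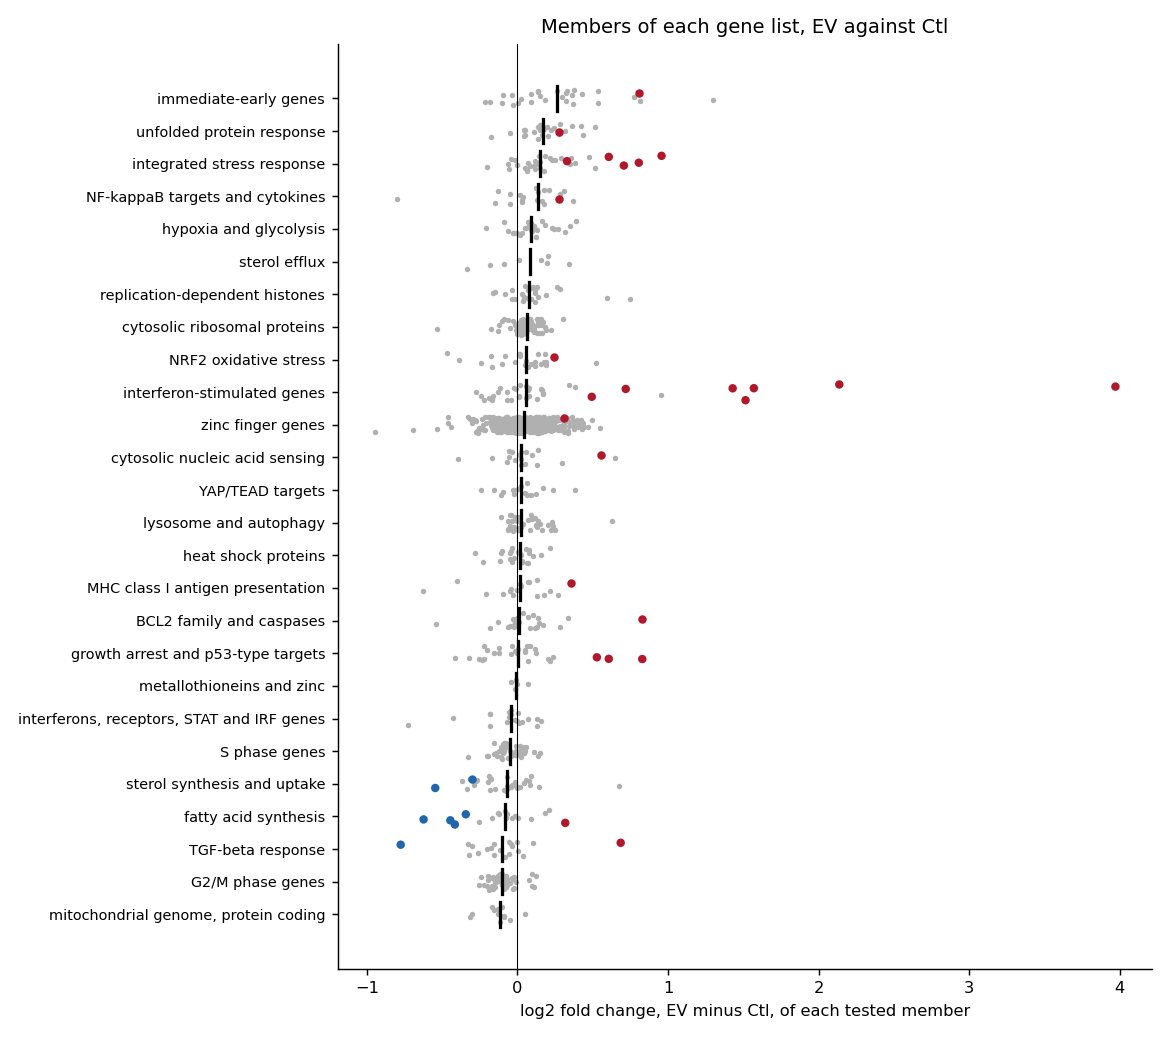
Each point is a tested member of a gene list placed at its log2 fold change of EV over Ctl, with lists ordered by their median (black bar). Red and blue points passed the test as higher or lower in EV and grey points did not; OASL, at 0 counts in every Ctl library, is not drawn. The highest median is that of the immediate-early genes at 0.26, and the interferon-stimulated genes reach farthest to the right with a median of 0.06.

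Of 28 tested growth arrest and p53-type genes 3 rose and none fell, beside 0.282% and 0.103% of all tested genes, and the median was 0.00. The study describes NCI-H1299 as p53 defective, so the name of the list does not state that p53 acted here. At an unadjusted p under 0.05, 5 were higher and 4 lower, beside 4.93% and 4.26% of all tested genes. DESeq2 gave 1 call in this list. PMAIP1, encoding the BH3-only protein NOXA, was at 7.13, 7.34 and 6.52 CPM in Ctl and 13.3, 12.1 and 12.2 CPM in EV (log2 fold change 0.83 ± 0.12 SE, adjusted p = 5.5e-04). CDKN1A, the cell cycle inhibitor p21, was at 11.9, 13.1 and 11.4 CPM and 18.1, 17.98 and 16.8 CPM (log2 fold change 0.53 ± 0.10 SE, adjusted p = 0.017). The third was SESN2, given above.

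No gene of the G2/M and S phase lists passed. Among all tested genes 50.4% lay above 0, and 4.93% were higher and 4.26% lower at an unadjusted p under 0.05. Of 56 tested G2/M genes none passed in edgeR or DESeq2, 17 were lower and none higher at an unadjusted p under 0.05, 51 lay below 0 with a median of -0.10, and 25 had all EV libraries below all Ctl libraries, beside 6.84% of all tested genes, but with library totals their median was 0.09 beside 0.20 for all tested genes, a difference of -0.11 from all genes with either scaling. Of 44 S phase genes none passed in edgeR or DESeq2, 1 was higher and 3 lower at an unadjusted p under 0.05, and 30 lay below 0 with a median of -0.05, or 0.15 with library totals, a difference of -0.05 from all tested genes with either scaling. CCNB1 (-0.07, adjusted p = 0.82) and MCM5 (-0.10, adjusted p = 0.63) showed no call. CDKN2C, the CDK inhibitor p18, fell (-0.46, adjusted p = 0.0087).

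The other large or well-supported changes belonged to no single group. TFRC, the transferrin receptor that takes up iron, was at 114, 109 and 105 CPM in Ctl and 151, 147 and 163 CPM in EV (log2 fold change 0.49 ± 0.06 SE, adjusted p = 6.0e-05). NAV3, a neuron navigator protein, was at 34.6, 35.6 and 37.1 CPM and 49.7, 49.1 and 53.1 CPM (log2 fold change 0.51 ± 0.07 SE, adjusted p = 2.4e-04).

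JADE2, APEX1 and ID2 fell. JADE2, a subunit of a histone acetyltransferase complex, was at 202, 208 and 186 CPM in Ctl and 152, 157 and 152 CPM in EV (-0.37, adjusted p = 0.0024). APEX1, the endonuclease of base excision repair, was at 38.8, 44.1 and 45.4 CPM and 30.7, 32.8 and 30.2 CPM (-0.46, adjusted p = 0.0041). ID2, an inhibitor of helix-loop-helix factors, fell from a low level (-0.78, adjusted p = 0.071).

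The largest changes outside the interferon genes were at low counts. MMP1, an interstitial collagenase, had 2, 2 and 4 counts in Ctl and 12, 8 and 21 in EV (2.21, 95% interval 1.25 to 3.16, adjusted p = 0.042). ERG, an ETS transcription factor, had 16, 14 and 15 counts in Ctl and 3, 2 and 8 in EV (-1.86, 95% interval -2.68 to -1.04, adjusted p = 0.049). DESeq2 gave MMP1, ERG and OASL no adjusted p. Smaller rises included SAT1, of polyamine breakdown (0.49, adjusted p = 0.026), PLTP, a phospholipid transfer protein (0.46, adjusted p = 0.035), and PLAUR, the urokinase receptor (0.26, adjusted p = 0.087), and smaller falls CAV1 and CAV2, which form caveolae (-0.26, adjusted p = 0.085, and -0.27, adjusted p = 0.071).

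Several small RNA genes passed, and their counts are uncertain because near-identical copies can share reads. RNU4-2, a spliceosomal RNA, was at 35.7, 35.3 and 27.4 CPM in Ctl and 48.1, 37.2 and 66.8 CPM in EV (0.66, adjusted p = 0.04), with EV replicate 3 highest. RN7SL2 and RN7SL3, copies of the signal recognition particle RNA, had 0.53, adjusted p = 0.082, and 0.28, adjusted p = 0.065. MIR3648 was lower in EV (-0.61, adjusted p = 0.042) and is the 1 gene of the 60 whose groups overlapped, and all exon bases of SCARNA13 lie within another gene. The share of ENSG00000266658 was a covariate in an alternative fit, in which 30 of the 59 genes with a symbol that passed kept the call. Whether its low share in EV replicate 3 caused the values of these small RNA genes was not tested.

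The remaining lists gave few calls. Among all tested genes 50.4% lay above 0, and 4.93% were higher and 4.26% lower at an unadjusted p under 0.05. The shares that passed were 0.282% higher and 0.103% lower. Ribosomal protein genes had 68 of 81 tested above 0 and a median of 0.06 without a call, with 12 higher and 1 lower at an unadjusted p under 0.05, and the 13 protein-coding genes of the mitochondrial genome had 12 below 0 and a median of -0.11, or 0.03 with library totals, with no call and no unadjusted p under 0.05; relative to all tested genes the median was -0.12 and -0.17 with these scalings. Lysosome and autophagy genes had no call, with 3 higher and 0 lower at an unadjusted p under 0.05, as had hypoxia and glycolysis genes, with 5 and 1, YAP/TEAD targets, with 1 and 1, and histone genes, with 5 and 0. DESeq2 gave no call in these 6 lists either. Among 429 tested zinc finger genes 1 passed, ZNF283, as higher, with 40 higher and 12 lower at an unadjusted p under 0.05 and a median of 0.04. DESeq2 gave none in the zinc finger list. Of 20 TGF-beta response genes 1 passed as higher and 1, ID2, as lower, while DESeq2 gave 1 as higher and none as lower. Of these 20, 16 lay below 0 with a median of -0.10, or 0.09 with library totals beside 0.20 for all tested genes, 1 was higher and 7 lower at an unadjusted p under 0.05, and 7 had all EV libraries below all Ctl libraries, beside 6.84% of all tested genes. Of 25 tested BCL2 family and caspase genes 1 passed, PMAIP1, given above, with 2 higher and 2 lower at an unadjusted p under 0.05.

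The libraries given TBX plasmids show where the levels of the same genes lay with another plasmid. Per the study, human TBX2 and TBX4 were in pORF plasmids with a Flag tag. Human TBX3 and mouse Tbx5 were in pCGN plasmids with an HA tag. In differences from EV, the effects of insert, tag and backbone cannot be told apart. TBX2, TBX3 and TBX5 have 3 libraries and TBX4 has 2, because the label of a further library is contradictory and it was left out. The comparisons below share the EV libraries with the comparison above, so the values stand side by side only. Of the 60 genes that differed between EV and Ctl, 39 differed between TBX2 and EV, 17 with TBX3, 14 with TBX4 and 27 with TBX5, beside 27.7%, 9.62%, 3.81% and 9.78% of all tested genes. With library totals these counts were 13, 0, 0 and 3, so the counts by direction that follow hold for TMM scaling. The shares of all tested genes with library totals are not given here. These counts therefore do not tell whether these genes or all genes lost calls. Of the 44 that were higher in EV than in Ctl, 20 were higher and 8 lower with TBX2 than with EV, beside 14.5% and 13.2% of all tested genes. The counts were 6 and 7 with TBX3, beside 5.62% and 4.0%, 1 and 4 with TBX4, beside 2.44% and 1.37%, and 3 and 15 with TBX5, beside 5.08% and 4.69%. Of the 16 that were lower in EV than in Ctl, 1 was higher and 10 lower with TBX2, 4 and 0 with TBX3, 2 and 7 with TBX4, and 3 and 6 with TBX5.

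ISG15 was higher again with TBX2 than with EV. It had a mean of 41.1 CPM with TBX2 (log2 fold change over EV 1.805, adjusted p = 2.1e-12) and 11.4, 13.6 and 12.2 CPM with TBX3, TBX4 and TBX5, none past the threshold.

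SREBF1, INSIG1 and SCD were lower still with TBX2, TBX4 and TBX5, and had no call with TBX3. With library totals SREBF1 passed with TBX2 only of the 4 plasmids, SCD with TBX2 and TBX5, and INSIG1 with TBX5 only. For SCD the log2 fold changes over EV were -1.34, -0.63 and -0.62 (adjusted p = 8.4e-14, 1.1e-05 and 1.4e-06), and -0.03 with TBX3 (adjusted p = 0.87). DDIT3 was higher than in EV with TBX2 (1.62, adjusted p = 8.4e-11) and TBX3 (1.23, adjusted p = 1.2e-07), and with library totals it passed with TBX2 only.

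**Figure D4:**
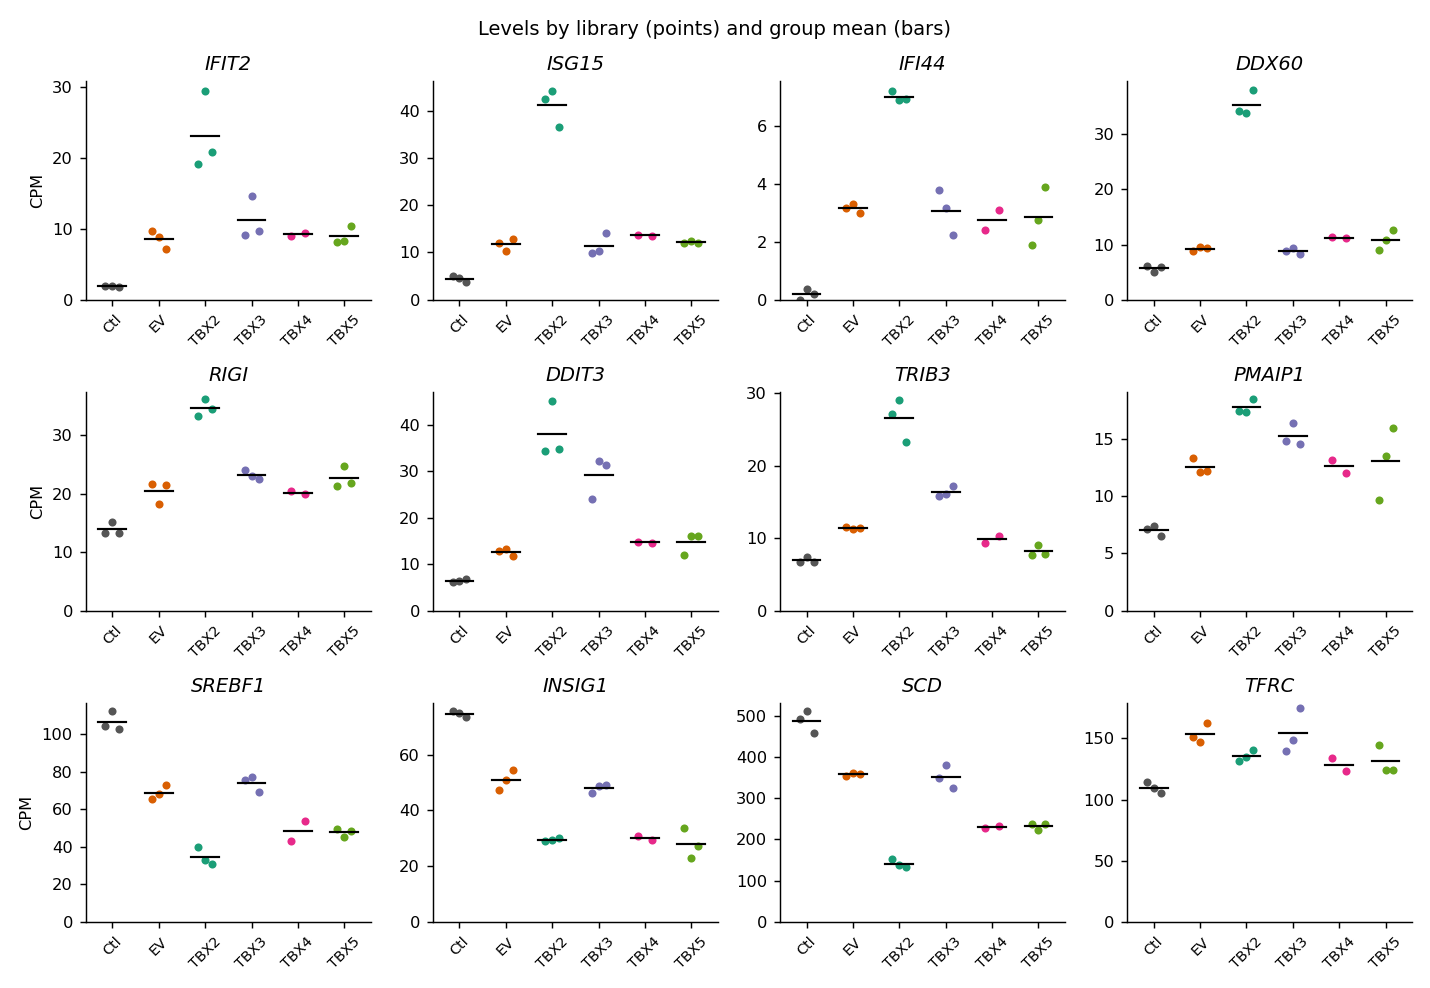
Points are libraries and black bars group means of the level in CPM, for Ctl, EV and the 4 TBX plasmids, with each gene on its own axis from 0. ISG15 and IFIT2 step up from Ctl to EV and again to TBX2, where ISG15 has a mean of 41.1 CPM, and SCD, at 352 to 361 CPM in EV, is lower in EV than in Ctl and lower still with TBX2, TBX4 and TBX5.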

How the data were processed

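Per the labels and the methods, STAR 2.3.0 placed the read pairs on GRCh37, and featureCounts, left at its defaults and so blind to strand, gave a total for each Ensembl gene. The authors deposited whole-number counts for 18 libraries, without normalization. Reads from overlapping or near-identical genes therefore cannot be told apart. Groups came from the library titles, and 1 library whose title pairs the number of the TBX4 libraries with the name TBX5 was left out of every comparison.

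EV was compared with Ctl by the quasi-likelihood test of edgeR 4.0.16 in R 4.3.3, with TMM scaling, on genes exceeding 5 counts in 10 or more libraries, and Benjamini-Hochberg adjusted p under 0.1. Dividing the size of a log2 fold change by the root of its F statistic gave the SE. TBX groups were compared with EV in 1 fit of 17 libraries. The study used DESeq2, run here as an alternative (1.42.0). The script was checked on simulated counts. Libraries with the same letter a, b or c in their titles showed no shared deviation from their group means (correlations -0.03, -0.03 and -0.02). This cannot settle whether they were prepared together. A floor of 3 counts per library covers counting error only.

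Genes were named by rule: the 12 smallest p and the 5 largest changes in each direction, the 4 smallest p of each list, and a set of pathway genes; further genes past the threshold were named after their values were seen. Results for some genes are not reported here. Members and lists were chosen with earlier results of these data known. Gene positions and exon overlaps are from GENCODE on GRCh37, promoters from RefSeq on GRCh38.p14. The overlaps need not match the annotation that the study used for counting. Of 691 list entries, 687 matched a gene.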

Additional observations from a re-analysis of the deposited data

How the results depend on the processing

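None of the 60 genes that passed changed sign under an alternative in which it was fitted; 4 of them were not tested with at least 10 counts in every library. Genes higher and lower in EV numbered 21 and 10 at an adjusted p under 0.05, 7 and 1 with a log2 fold change of at least 1, 16 and 1 with library totals, 20 and 10 with DESeq2, 19 and 7 in 1 fit of 17 libraries, 26 higher when the share taken by ENSG00000266658 was a covariate, and 67 lower without a filter. Of the 59 genes with a symbol that passed, 53 kept the call with totals that left out ENSG00000266658, 55 with DESeq2 size factors and 30 with the covariate. Leaving out 1 library gave 15 to 131 higher and 7 to 99 lower. When the letters of the titles formed a block, 21 and 10 passed, with 3 integrated stress response genes. Whether the letters pair the libraries is not known. The 8 interferon-stimulated genes became 5 with at least 10 counts in every library or with DESeq2, which gave 3 of the 60 genes, OASL among them, no adjusted p, and 6 to 8 with a library left out. The 6 lipid genes became 0 with a log2 fold change of at least 1 or library totals, and 4 to 9 with a library left out. The 5 integrated stress response genes became 3 at 0.05, 0 with a log2 fold change of at least 1, 2 with library totals, 3 with the covariate, 3 with DESeq2, 2 in 1 fit, and 3 to 9 with a library left out. With library totals, 13, 0, 0 and 3 of the 60 genes differed from EV with TBX2, TBX3, TBX4 and TBX5, without a share of all tested genes to set beside them. The cause was not tested.

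Values that changed sign belonged to genes without a call near 0. With library totals, which moved the median of all genes by 0.20, they were 0.0279 for OAS3, 0.171 for STING1, 0.129 for HMGCS1, 0.0375 for SREBF2, 0.193 for MT2A, 0.143 for CCNB1 and 0.0971 for MCM5. MT2A was 0.0141 with totals without ENSG00000266658 and 0.00114 with the covariate, where IRF9 was 0.216, and IRF7 was -0.00353 without a filter. With a library left out, IRF7 ran from -0.170 to 0.148, IRF9 from -0.837 to 0.183, STING1 from -0.161 to 0.108, NFKBIA from -0.000247 to 0.0384 and MT2A from -0.121 to 0.0754.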
